A study of Mus musculus with 21 samples.

Results

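The respiratory chain genes were followed in the brains of eIF2B HOM and wild-type mice. A total of 98 of the 22058 genes in the deposited count table belonged to this group, chosen by their symbols. Of these, 85 are nuclear genes (symbols beginning with Nduf, Sdh, Uqcr, Cyc1, Cox4 to Cox8 or Atp5) and 13 are the protein-coding genes of mitochondrial DNA (symbols beginning with mt-). The nuclear genes comprised 35 of complex I, 4 of complex II, 9 of complex III, 20 of complex IV and 15 of complex V, and 2 (Atp5s and Atp5sl) that encode no subunit. The mitochondrial genes comprised 7 of complex I, 1 of complex III, 3 of complex IV and 2 of complex V. Ndufa4, named as a complex I subunit, was placed with complex IV, where its protein is found.

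The respiratory chain passes electrons from NADH (complex I) and succinate (complex II) through complex III to oxygen at complex IV. It pumps protons that complex V, the ATP synthase, uses to make ATP. Complexes I, III, IV and V are built from proteins of both the nuclear and the mitochondrial genome, and complex II from nuclear genes only. Some subunits of complex IV exist as tissue isoforms encoded by separate genes. Neurons draw heavily on this pathway for their ATP.

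The 21 libraries came from the anterior right hemisphere of the brain, 1 per mouse. The 9 eIF2B HOM mice carried both copies of the Eif2b5 R191H knock-in, which changes a subunit of the translation initiation factor eIF2B and serves as a model of vanishing white matter disease, on a C57BL/6J background. The 12 wild-type mice came from the same heterozygous breeding. A 3′ tag does not read the mutated codon, so each genotype rests on its label. The eIF2B HOM group held 5 females and 4 males, the wild-type group 7 females and 5 males, and all mice were 90 to 114 days old. Batch 1 of the labels held 4 eIF2B HOM mice (105 to 114 days) and 8 wild-type mice (104 to 114 days). Batch 2 held 5 eIF2B HOM mice (93 to 104 days) and 4 wild-type mice (90 to 92 days), so that age and batch went together.

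The libraries held 727018 to 3100141 counts, of which mt- genes took 18.4% to 23.55% and the nuclear genes 2.13% to 3.80%. In all, 86 of the 98 genes passed the filter on low counts (78 nuclear, 8 mitochondrial), and 12 did not. Levels are given in CPM, counts scaled to a common library size with TMM factors. Since a 3′ library gives about 1 tag per transcript, they were not divided by length. The summed olfactory bulb markers were 95.0 to 118 CPM in 4 libraries (3 wild-type, 1 eIF2B HOM) and 19.4 to 68.9 CPM in the other 17. One wild-type library, a male of 113 days in batch 1 (wild-type replicate 8), had the highest summed nuclear respiratory chain genes at 40770 CPM, against 20160 to 31110 CPM in the other 20 mice. The calls by genotype are also given without these libraries.

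The first question was which of these genes differed between the genotypes. Cox6a2 was the only 1 of the 86 that was higher in eIF2B HOM mice in the edgeR fit with sex and age as covariates. Another 12 were lower, all nuclear, and 73 were not called. Across all 9192 genes tested, 2.62% were called higher and 1.7% lower at an adjusted p under 0.05. The median log2 fold change was -0.16 over the 86 genes and -0.01 over all genes tested, and 73 of the 86 values lay below 0. The 12 lower calls were lost with batch in place of age in the edgeR fit, whereas the Cox6a2 call was not. In none of the 86 genes did the 2 genotypes separate completely, against 0.446% of all genes tested.

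**Figure D1:**
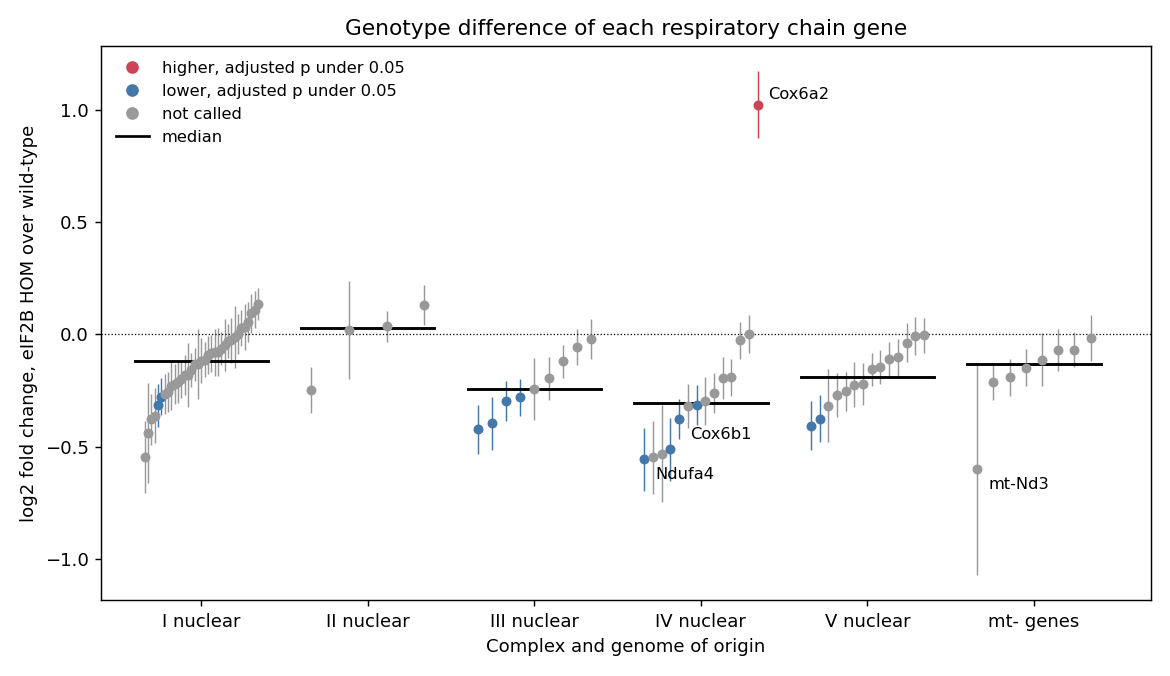
Each point is the log2 fold change of 1 tested gene, eIF2B HOM over wild-type, with its SE, grouped by complex and genome of origin on the x axis, without Atp5s and Atp5sl. The horizontal bars are group medians. Cox6a2 stands alone above the others at 1.02, and the 12 called lower lie between -0.56 and -0.28.

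Cox6a2 encodes the heart and skeletal muscle isoform of complex IV subunit 6a, and in the mouse brain its expression is known from parvalbumin interneurons. Its level was 24.35 to 57.9 CPM in the 9 eIF2B HOM mice with a median of 31.7 CPM, and 8.66 to 28.3 CPM in the 12 wild-type mice with a median of 15.0 CPM. The groups overlapped through 1 mouse on each side, and 8 of the 9 eIF2B HOM mice lay above every wild-type mouse. The difference was 1.02 on the log2 scale (SE 0.15, adjusted p = 5.32e-06, edgeR), and the 2-sided exact permutation test over mice gave p = 6.8e-06. These values rest on 725 counts over all 21 mice. In tissue libraries, fewer cells of a type and less RNA per cell cannot be told apart, and this holds for every difference below.

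The Cox6a2 difference was present in each batch and each sex. In batch 1, the 4 eIF2B HOM mice had 28.6 to 57.9 CPM and the 8 wild-type mice 8.66 to 28.3 CPM, with no overlap. In batch 2, the 5 eIF2B HOM mice had 24.35 to 35.9 CPM and the 4 wild-type mice 15.4 to 22.5 CPM, again with no overlap. In batch 2 every eIF2B HOM mouse was older than every wild-type mouse (93 to 104 against 90 to 92 days), so genotype and age went together there. The log2 fold change was 1.37 in batch 1 (SE 0.24, adjusted p = 0.00115) and 0.70 in batch 2 (SE 0.17, adjusted p = 0.0368), both with edgeR and with sex but not age in the fit. The edgeR term for the difference between the batches was -0.68 (SE 0.31, adjusted p = 1). It was 0.86 in females alone (adjusted p = 0.00361) and 1.24 in males alone (adjusted p = 0.00887). With sex and batch in place of sex and age it was 1.00 (SE 0.16, adjusted p = 6.01e-05, edgeR).

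Cox6a1 encodes the isoform of the same subunit found in most tissues, and was not called. Its level was 810.7 to 1362 CPM in eIF2B HOM mice (median 882 CPM) and 796.9 to 1514 CPM in wild-type mice (median 1057 CPM), so that the ranges largely coincided. The log2 fold change was -0.19 (adjusted p = 0.213, edgeR). Cox6a2 made up 2.06% to 4.76% of the counts of both isoforms in eIF2B HOM mice and 0.695% to 2.39% in wild-type mice. The ranges of this share overlapped slightly, and Cox6a1 was the main transcript in every mouse.

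The isoforms lie on different chromosomes, Cox6a2 at chr7:128205435-128206387 on the minus strand, and their sequences are distinct enough to be counted apart. The coding sequences of 291 and 336 bases matched at 62.8% of 285 aligned bases and shared no run longer than 12 bases. The coding part of the third and last exon, 81 bases in both, is shown 5′ to 3′ with the 22 differing bases in capitals (GRCm38, minus strand, Gencode annotation).
Cox6a2 chr7:128205732-128205812: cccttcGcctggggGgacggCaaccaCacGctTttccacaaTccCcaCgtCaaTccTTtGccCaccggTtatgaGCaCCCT
Cox6a1 chr5:115345846-115345926: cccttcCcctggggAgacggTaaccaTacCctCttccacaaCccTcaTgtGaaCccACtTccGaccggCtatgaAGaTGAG
None of the 100-base windows in the last 400 bases of either transcript occurred in a transcript of another gene.

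**Figure D2:**
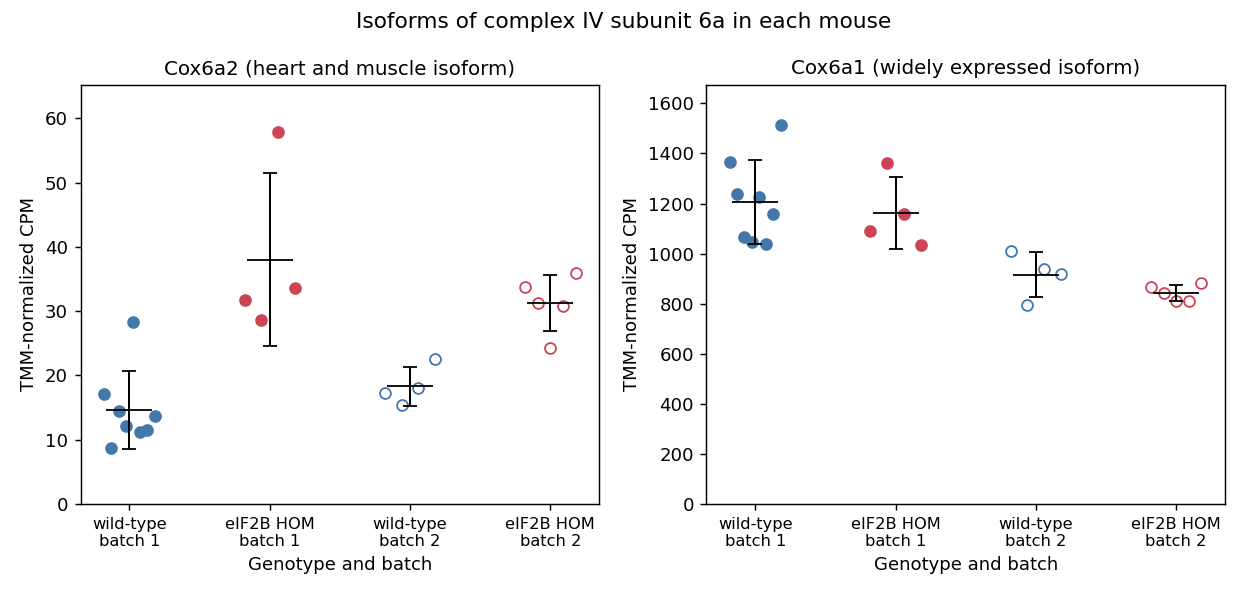
Each point is 1 mouse, in TMM-normalized CPM, by genotype and batch (filled for batch 1, open for batch 2), with the mean and SD of each group. Cox6a2 is higher in eIF2B HOM mice in both batches without overlap inside a batch, whereas Cox6a1 overlaps between genotypes in both.

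Markers of muscle and interneurons were not called higher beside Cox6a2. Of 6 skeletal muscle markers, 1 was tested (Acta1, log2 fold change -0.24, adjusted p = 0.527), and Ckm, Myh1, Myh4 and Tnnt3 had 2 to 7 counts over all mice. Their summed level was 9.01 to 16.5 CPM in eIF2B HOM and 7.72 to 19.8 CPM in wild-type mice. Of 8 parvalbumin and other interneuron markers 6 were tested, and 0 were called with edgeR, limma voomWithQualityWeights (voom below) or DESeq2. Only Pvalb, the calcium-binding protein that names these cells, had an unadjusted p under 0.05 (log2 fold change -0.34, adjusted p = 0.0992). The summed interneuron markers were 395.7 to 638 CPM in eIF2B HOM and 469.6 to 665 CPM in wild-type mice.

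The other tissue isoforms of complex IV were scarce. Cox7a1, the muscle isoform of subunit 7a, was 3.88 to 11.2 CPM in eIF2B HOM and 5.12 to 17.3 CPM in wild-type mice and was not called, nor was its counterpart Cox7a2 (776.3 to 1255 against 853.8 to 2045 CPM). A further 5 isoforms and the related Ndufa4l2 fell below the filter and were compared by 2-sided exact permutation tests where they had 10 counts or more. Cox7b2, an isoform of subunit 7b, was 0.667 ± 0.695 CPM in 9 eIF2B HOM mice and 1.67 ± 1.18 CPM (SD) in 12 wild-type mice, with an exact p of 0.0373 (0.186 adjusted over the 5 genes so tested). Cox7b2 made up 0% to 0.407% of the counts of Cox7b2 and its common counterpart Cox7b in both genotypes. The common isoforms Cox7b, Cox4i1 and Cox8a had log2 fold changes of -0.55, -0.19 and -0.32. None of them was called (adjusted p = 0.0655, 0.286 and 0.0527, edgeR). For Cox6b2, Cox8b, Ndufa4l2 and Cox4i2 the exact p was 0.262 to 0.599. Cox8c had 0 counts, which allows a level of up to 0.0972 CPM over all mice, counting error only.

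Beside Cox6a2, complex IV held 4 of the 12 lower genes among its 14 nuclear genes tested. Its median log2 fold change was -0.30. Cox6b1, a subunit at the contact between the monomers of complex IV, had the smallest p of the 12. It was 352.9 to 667.4 CPM in eIF2B HOM mice (median 432.6 CPM) and 444.4 to 908.7 CPM in wild-type mice (median 578 CPM). Of the eIF2B HOM mice, 5 were below every wild-type mouse and the remaining 4 lay within the wild-type range. The log2 fold change was -0.38 (SE 0.09, adjusted p = 0.00521, edgeR) and the exact permutation p over mice was 0.0284.

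Ndufa4, a complex IV subunit, was 190.5 to 544.8 CPM in eIF2B HOM mice (median 317 CPM) and 244.8 to 1136 CPM in wild-type mice (median 413 CPM). The highest wild-type value belonged to replicate 8, and the next was 581.6 CPM. Cox7c, a small membrane subunit, was 356.7 to 1035 CPM (median 453.6 CPM) against 412.7 to 1666 CPM (median 700.9 CPM). Cox5b, a matrix-side subunit, was 262.7 to 544.8 CPM (median 330.9 CPM) against 310.3 to 719.4 CPM (median 422 CPM). All 3 overlapped broadly between genotypes. Their log2 fold changes were -0.56, -0.51 and -0.31, with adjusted p of 0.0226, 0.0388 and 0.0303 (edgeR). Their exact permutation p over mice, which takes no account of sex or age, was 0.0783, 0.101 and 0.132. Cox7c shares 31% of the 100-base windows in its last 400 bases with a pseudogene and another annotated transcript, so its count may be split with them.

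Complex III had 4 of its 9 genes called lower, with a median of -0.24 and all 9 values below 0. Uqcrfs1, the Rieske iron-sulfur protein that takes electrons from ubiquinol, was 75.4 to 117 CPM in eIF2B HOM mice (median 99.1 CPM) and 91.5 to 137 CPM in wild-type mice (median 119 CPM). All 9 eIF2B HOM mice lay below the wild-type median, and 7 of the 12 wild-type mice lay above every eIF2B HOM mouse. The log2 fold change was -0.28 (SE 0.08, adjusted p = 0.0416, edgeR), with an exact permutation p of 0.00387. Uqcr11, a small accessory subunit, was 136.2 to 286 CPM (median 156 CPM) against 168.2 to 439.2 CPM (median 224.7 CPM), a log2 fold change of -0.42 (adjusted p = 0.0207). Uqcrh, the hinge protein that binds cytochrome c1, differed by -0.30 (adjusted p = 0.0422) and Uqcrb, an accessory subunit near the quinone site, by -0.39 (adjusted p = 0.0496). The exact permutation p of these 3 was 0.0567, 0.056 and 0.164, and their ranges overlapped between genotypes.

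Complex I had 2 of its 35 nuclear genes called lower and a median of -0.12. Ndufb3, an accessory subunit of the membrane arm, was 137.9 to 270.9 CPM in eIF2B HOM mice (median 186.3 CPM) and 187.6 to 348.3 CPM in wild-type mice (median 232.7 CPM). A total of 5 eIF2B HOM mice were below every wild-type mouse, and the log2 fold change was -0.32 (adjusted p = 0.0486, edgeR, exact permutation p = 0.0108). Ndufb11, another membrane arm subunit encoded on the X chromosome, differed by -0.28 (adjusted p = 0.0396, exact permutation p = 0.0782). The third smallest p in the complex belonged to Ndufb6 with -0.38 (adjusted p = 0.0504), just outside the threshold, as Uqcrb was just inside it.

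Complex V had 2 of its 14 tested genes called lower and a median of -0.19, with all 14 values below 0. Atp5j, coupling factor 6 of the peripheral stalk, overlaps Gabpa on the opposite strand, and without a stated strand setting reads of the pair cannot be told apart. It was 113.5 to 326.9 CPM in eIF2B HOM mice (median 173.4 CPM) and 139.7 to 424 CPM in wild-type mice (median 208.6 CPM), a log2 fold change of -0.41 (adjusted p = 0.0257). Atp5e, the epsilon subunit of the central stalk, was 254.1 to 585.7 CPM (median 320.7 CPM) against 330.2 to 908.7 CPM (median 433 CPM), a log2 fold change of -0.37 (adjusted p = 0.0308). Both genes overlapped between genotypes, and their exact permutation p over mice was 0.137 and 0.11. Atp5f1, the b subunit of the peripheral stalk, came next with -0.25 and was not called (adjusted p = 0.101).

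The genes of complex II showed no common direction. None of its 4 genes was called with edgeR, voom or DESeq2, 1 had an unadjusted p under 0.05, and the median was 0.03. Sdhc, a membrane anchor, was that gene, with -0.25 (adjusted p = 0.184). Sdhb, the iron-sulfur subunit, differed by 0.13 (adjusted p = 0.491) and Sdha, the flavoprotein, by 0.04 (adjusted p = 0.856). The level of Sdha was 258.8 to 317 CPM in eIF2B HOM and 249.9 to 310.3 CPM in wild-type mice, nearly the same range. Whether complex II differed from the other complexes was not tested. Atp5s and Atp5sl were not called either.

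The 12 lower calls changed with the fit. With voom, the study's own method, 23 genes were called lower, the 12 among them, and Cox6a2 again was the only 1 higher, against 2.75% lower and 3.21% higher of all genes tested. With batch in place of age in the edgeR fit, 0 of the 86 were called lower (10 had an unadjusted p under 0.05), against 0.598% of all genes, and Cox6a2 was the 1 higher, against 1.99%. In that fit the log2 fold changes of the 12 were -0.35 (Ndufa4) to -0.15 (Cox5b), with adjusted p of 0.132 (Uqcrfs1) to 0.7 (Uqcrb), and that of Cox6b1 was -0.25 (adjusted p = 0.179). With voom and batch, Uqcrfs1 alone was called lower (-0.30, adjusted p = 0.0271). Within batch 1 alone and within batch 2 alone, 0 were called lower with edgeR (1 and 15 with an unadjusted p under 0.05). The share of all genes called within either batch is not given here. The median of the nuclear genes was -0.06 in batch 1 and -0.11 in batch 2, with sex but not age in the fit. It was -0.17 in all mice with sex and age.

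Single libraries also mattered for the number of genes called. The share of all genes called in these fits is not given here, so a change across the whole table is not set apart. Without eIF2B HOM replicate 1, 1 gene was called lower, and without wild-type replicate 4, 26 were. Leaving out any 1 of eIF2B HOM replicates 3 to 8 or wild-type replicates 1, 2, 8 and 9 left 2 to 7. Without wild-type replicate 8, the library with the highest nuclear sum, 6 were called lower, 5 of them among the 12 (Atp5j, Cox6b1, Cox7c, Ndufa4 and Uqcr11). Without it the log2 fold change of Ndufa4 was -0.42, of Cox7c -0.41 and of Atp5e -0.29. Without the 4 libraries with the highest olfactory bulb markers, only Cox6b1 was. Cox6b1 and Cox6a2 kept their calls in every fit that left out 1 mouse. Some glial markers differed with genotype as well, whereas of 6 microglial markers 0 were called with edgeR (3 with an unadjusted p under 0.05). Of 6 oligodendrocyte markers 2 were called lower and 0 higher with edgeR, against 1.7% and 2.62% of all genes tested, and the list median was -0.31. Mbp, which encodes a major myelin protein of oligodendrocytes, was lower in eIF2B HOM mice, with a log2 fold change of -0.49 (adjusted p = 0.000564, edgeR). Mag, another of the 6, differed by 0.19 and was not called (adjusted p = 0.665, edgeR). Of 6 astrocyte markers 1 was called higher with edgeR (Gfap, a filament protein, 0.78, adjusted p = 0.00797) and 0 lower, the list median was 0.01, and voom called 0 higher and 1 lower. The summed astrocyte markers were 2596 to 4118 CPM in eIF2B HOM and 2755 to 3945 CPM in wild-type mice. Their part in the lower calls was not tested.

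**Figure D3:**
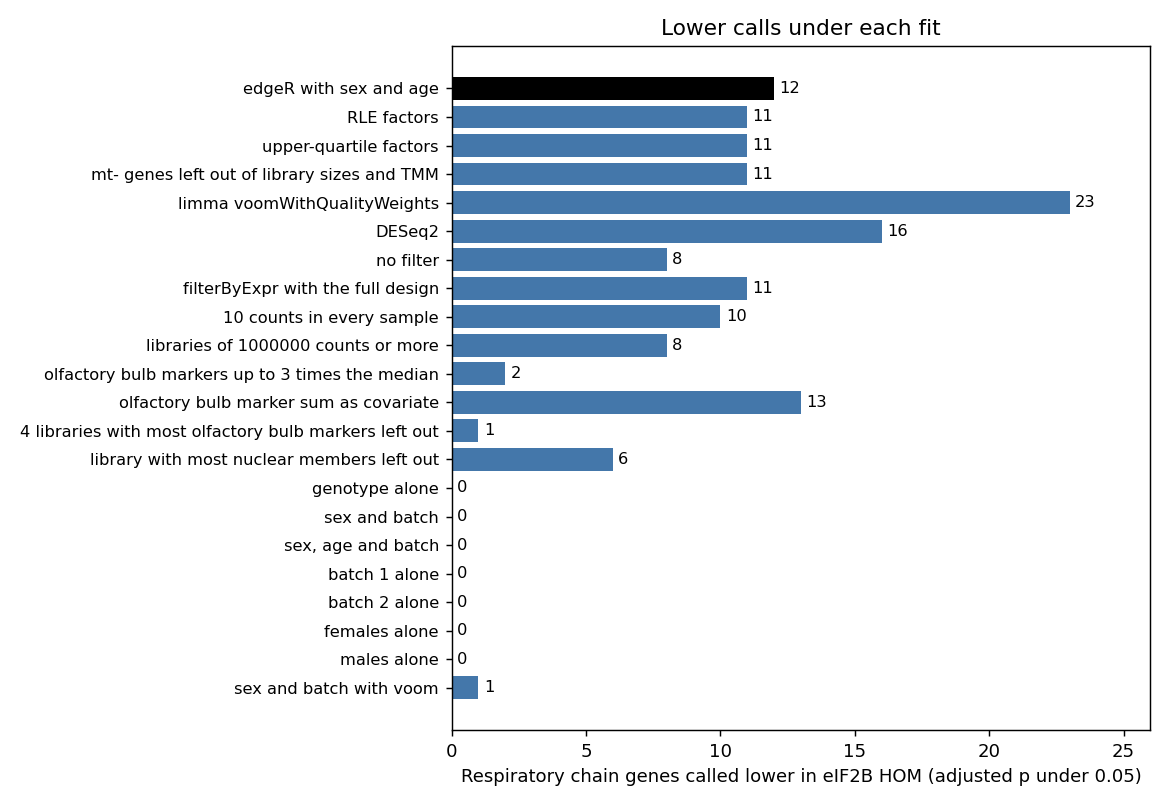
Each bar is the number of respiratory chain genes called lower in eIF2B HOM mice (adjusted p under 0.05) in 1 fit, the black bar being edgeR with sex and age. The count ranges from 0 in edgeR fits with batch, without covariates or within 1 batch or sex, to 23 with voom and sex and age, and is 1 with voom and batch.

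The nuclear and mitochondrial transcripts were then summed. The nuclear genes together were 20160 to 30500 CPM in eIF2B HOM mice (median 24000 CPM) and 22060 to 40770 CPM in wild-type mice (median 25830 CPM). The mean in eIF2B HOM mice was 87.4% of the wild-type mean, and 91.4% without wild-type replicate 8. The mt- genes were 173800 to 252900 CPM (median 193000 CPM) against 190900 to 261500 CPM (median 212200 CPM), a mean of 93.7% of wild-type. Both sums overlapped widely between genotypes. Within batch 1, the nuclear sum was 25470 to 30500 CPM in 4 eIF2B HOM and 25010 to 40770 CPM in 8 wild-type mice, and within batch 2 it was 20160 to 24000 CPM in 5 eIF2B HOM and 22060 to 25540 CPM in 4 wild-type mice.

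**Figure D4:**
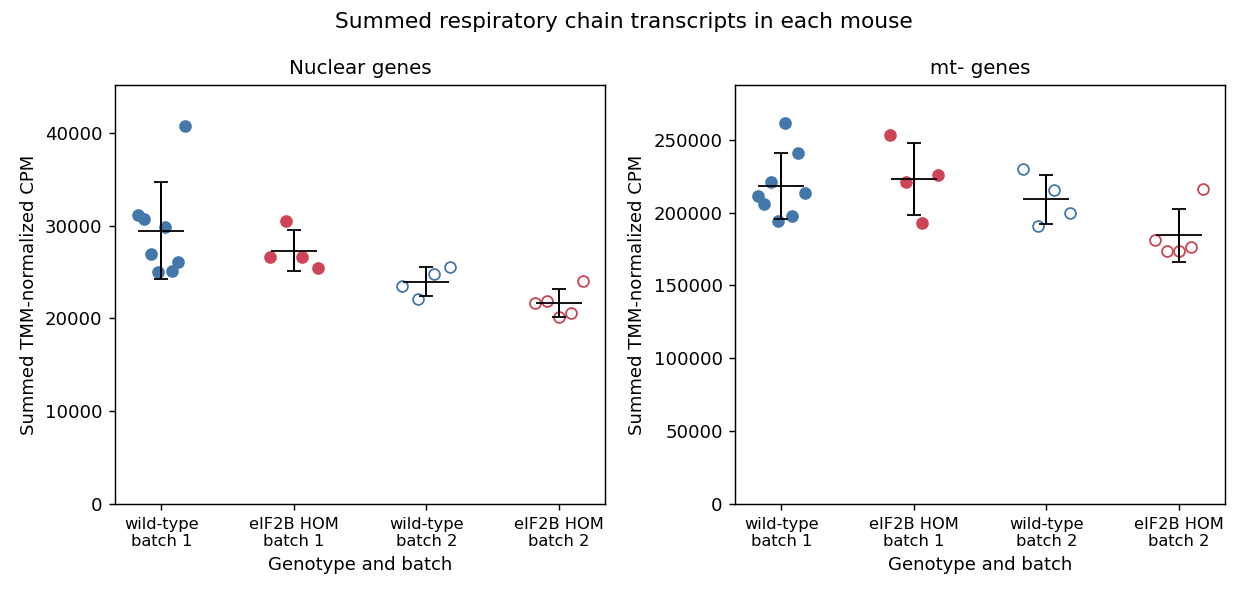
Each point is the summed level in 1 mouse in TMM-normalized CPM, for nuclear genes on the left and mt- genes on the right, by genotype and batch, with the mean and SD. The mean nuclear sum is lower in batch 2 than in batch 1 in both genotypes, and the genotypes overlap within each batch.

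None of the 8 mitochondrial genes tested was called by genotype with edgeR, and 2 had an unadjusted p under 0.05. mt-Co1, the catalytic subunit of complex IV, was 10080 to 19070 CPM in eIF2B HOM mice and 12060 to 22720 CPM in wild-type mice (log2 fold change -0.21, adjusted p = 0.143). mt-Nd1, a membrane arm subunit of complex I, was 29830 to 47560 CPM against 34150 to 47710 CPM (-0.19, adjusted p = 0.202). Both were called lower with voom and mt-Co1 also with DESeq2. The apocytochrome b gene mt-Cytb differed by -0.15 (adjusted p = 0.392), and mt-Nd2, mt-Nd4, mt-Nd5 and mt-Nd6 by -0.11 to -0.02 (adjusted p = 0.708 to 0.967). mt-Nd3, with 463 counts in all mice, differed by -0.60 with an SE of 0.47 (adjusted p = 0.585). All 8 values lay below 0, whereas in batch 1 alone those of mt-Nd2, mt-Nd4, mt-Nd5 and mt-Nd6 lay above 0 (0.00412 to 0.0961, none called).

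The other 5 mitochondrial genes were nearly absent from the counts. mt-Co2, mt-Co3, mt-Atp6, mt-Atp8 and mt-Nd4l had 8, 1, 6, 0 and 2 counts over all mice, against 1614000 for mt-Nd4, 1536000 for mt-Nd2, 1143000 for mt-Nd1, 1069000 for mt-Cytb, 455000 for mt-Co1, 436800 for mt-Nd5 and 7430 for mt-Nd6. The nuclear genome holds pseudogene copies of a stretch of mitochondrial DNA on chromosome 1, between positions 24612407 and 24615565 for these genes (GRCm38). Of the 100-base windows in the last 400 bases of mt-Co2, mt-Atp6, mt-Co3, mt-Nd3 and mt-Nd4l, 97.6% to 99.7% occurred letter for letter in those copies. A read from such a window has more than 1 place to map, and how the counting treated it is not given in the sources used here. mt-Co1 is an exception, with 100% of its windows shared and 455000 counts. mt-Atp8 shared no window with an annotated transcript of another gene, but the stretch of chromosome 1 between the annotated copies was not searched. The gene also overlaps mt-Atp6, as mt-Nd4l overlaps mt-Nd4. The part of shared sequence in these low counts was not tested, and the low counts are no measure of the transcripts.

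The copies are nearly perfect. The copy of mt-Co2, Gm28661 at chr1:24614885-24615565, matched at all 681 aligned bases, and its last 60 bases stand for both genes (chrM:7634-7693, plus strand).
mt-Co2: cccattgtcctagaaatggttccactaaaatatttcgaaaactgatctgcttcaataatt
mt-Nd3 differed from its copy, Gm28438, at 1 of 345 bases, which lies near the start of the gene and is in capitals in these 60 bases of each (chrM:9459-9518, plus strand, and chr1:24613060-24613119, minus strand).
mt-Nd3: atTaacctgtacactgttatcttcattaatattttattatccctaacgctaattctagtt
Gm28438: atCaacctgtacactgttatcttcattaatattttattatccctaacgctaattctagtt

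Some nuclear genes have the same limit. Atp5l, a membrane subunit of complex V, shared 69.8% of its last windows with pseudogenes and had 773 counts, Ndufs3 shared 42.2% with 541 counts, and Ndufs5 shared 28% with 590 counts. Atp5g2, a c-ring gene with 45.1% shared, had 4 counts and was not tested. None of these 4 was called by genotype, and their counts may be split with the copies. The same limit holds for some genes called lower. Besides Cox7c, Uqcrb shared 17.3% with pseudogenes, Cox5b 6.4% with another annotated gene and Atp5j 2.5% with Gabpa on the opposite strand. Among genes not called, Ndufb6, Uqcrc2 and Cox5a shared 33.4%, 50% and 24.6% with genes on the opposite strand. Cox6a2, Cox6b1, Uqcrfs1, Uqcr11, Ndufa4, Atp5e, Ndufb11, Uqcrh and Ndufb3 shared none.

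More of these genes were called between the batches of the labels than between genotypes. With genotype and sex in the edgeR fit, 42 of the 86 genes were lower in batch 2 (38 nuclear, 4 mitochondrial) and 2 were higher, against 11.4% lower and 10.2% higher of all genes tested. The median log2 fold change was -0.27 over the 86 genes and -0.001 over all genes. Complex IV held 10 lower genes of 14, complex V 9 of 14, complex III 5 of 9, complex I 13 of 35 and complex II 1 of 4. Age differs between the batches, so batch and age cannot be told apart, and with age also in the fit 0 were called.

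The smallest p belonged to mt-Co1, which was 15170 to 22720 CPM in the 12 mice of batch 1 (median 18090 CPM) and 10080 to 14430 CPM in the 9 of batch 2 (median 12620 CPM), without overlap. Its log2 fold change was -0.49 (SE 0.08, adjusted p = 8.1e-05, edgeR). Cox4i1, the common isoform of the largest nuclear subunit of complex IV, was 1128 to 2120 CPM against 843.1 to 1127 CPM (-0.59, adjusted p = 0.000116). Cox6b1 was 505.3 to 908.7 CPM against 352.9 to 483.8 CPM, also without overlap (-0.51, adjusted p = 0.000158). Cox5b (-0.63), Cox8a (-0.60) and Ndufb11 (-0.48) followed with adjusted p of 0.000116 to 0.000243. In these genes the mice of batch 2 were the low ones in both genotypes.

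The 2 genes higher in batch 2 were Sdhb and Ndufv3. Sdhb was 136.3 to 254.6 CPM in batch 1 and 173.4 to 296.1 CPM in batch 2 (0.42, adjusted p = 0.00649), with overlap. Ndufv3, a subunit of the NADH-oxidising arm of complex I, was 185.6 to 405.5 CPM and 246.4 to 529.2 CPM (0.50, adjusted p = 0.0324). Without wild-type replicate 1, 9 or 12 or eIF2B HOM replicate 2, 1 gene was called higher. Neither was called without the 5 libraries of fewer than 1000000 counts, where 20 genes were lower. The genotype and batch comparisons share their mice. Of the 12 genes lower by genotype, Uqcrfs1 (-0.08 by batch, adjusted p = 0.553) and Ndufb3 (-0.12, adjusted p = 0.444) were not called by batch.

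Cell markers moved with batch too. Against 10.2% higher and 11.4% lower of all genes tested, 4 of 5 pan-neuronal markers and 3 of 6 microglial markers were higher in batch 2, as was 1 each of the excitatory neuron (5 tested), interneuron (6 tested) and pericyte and smooth muscle (4 tested) markers. Of 6 astrocyte markers 3 were lower and 0 higher, and of 6 oligodendrocyte markers 1 was higher and 2 were lower. Their part in the batch difference was not tested. Cox6a2 differed by 0.08 between batches (adjusted p = 0.795).

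The lower genes had short transcripts. The longest protein-coding transcript had a median of 663.5 nucleotides over the 12 lower by genotype, 1005 over the 65 nuclear genes not called and 3472.5 over all genes tested. By batch, the median was 735 over the 38 lower nuclear genes and 1119.5 over the 38 not called. Genes outside the respiratory chain also differed by length. Of 61 such genes of up to 600 nucleotides, 9.84% were lower by genotype and 54.1% by batch, with median log2 fold changes of -0.18 and -0.34. Of 5470 genes over 3000 nucleotides, 1.04% and 8.54% were lower, with medians of 0.002 and 0.02. The 15 nuclear respiratory chain genes of up to 600 nucleotides had medians of -0.30 by genotype and -0.42 by batch, with 4 and 10 called lower. Cox6a2, at 680 nucleotides, was in the next class and higher. The part of transcript length in the lower calls was not tested.

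**Figure D5:**
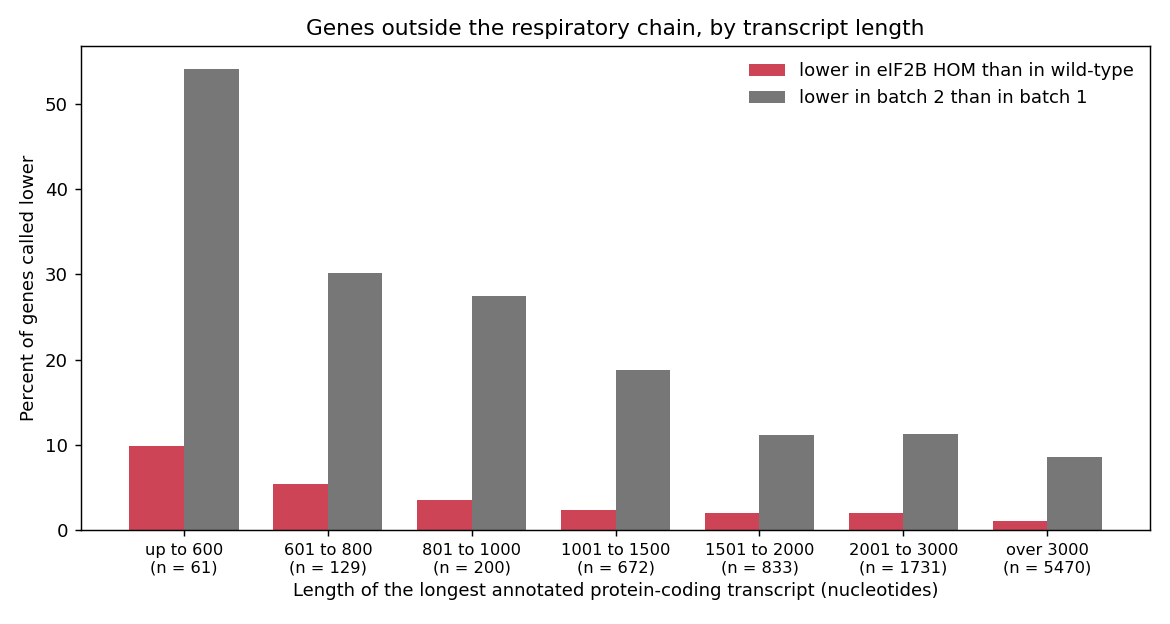
Bars give the percent of genes outside the respiratory chain called lower, in eIF2B HOM mice (red) or in batch 2 (grey), by the length of the longest protein-coding transcript in nucleotides, with the number of genes. Both shares are highest in the shortest class, at 9.84% and 54.1%, and lowest in the longest, at 1.04% and 8.54%.

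Sex and the combinations of factors called none of the 86 genes. With edgeR, 0 were higher or lower in males and 0 had an unadjusted p under 0.05, voom called 0 (3 unadjusted) and DESeq2 called 0, against 0.0326% higher and 0% lower of all genes. For the difference of the genotype effect between batches 0 were called with edgeR and 3 had an unadjusted p under 0.05 (Cox6a2, Ndufa12 and Ndufs8), and voom also called 0 (11 unadjusted). For the difference between sexes 0 were called, 1 had an unadjusted p under 0.05 (mt-Nd6, -0.60), and voom called 0 as well. Across all genes tested, 0% were called in either term.

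Promoters were examined because 12 nuclear genes were called lower, each by its own test, in the edgeR fit with sex and age. RefSeq promoters of 300 bases (250 before to 50 after the start, GRCm38.p6) matched 66 of the 85 nuclear genes and 11 of the 12 lower ones. Cox6a2 was not among the 66, so its promoter was not searched. The ETS core CCGGAAG, searched on both strands, was found in 36.4% of the 11 (4 promoters), 22.7% of the 66 and 9.12% of 27025 genes. The motif of NRF1, a factor known to drive respiratory chain genes, was in 0 of the 11, 7.58% of the 66 and 0.977% of all genes, and the YY1 motif AAGATGGC in 0 of the 11, 12.1% and 2.88%. The TATA box TATAAA was in 0 of the 11, 10.6% and 14.2%. The composite element TGATGNAA of ATF4, the transcription factor of the integrated stress response, and its CEBP partners was in 0 of the 66 and 4.06% of all genes. These are matches of letters, not sites.

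The promoters of Cox6b1, with the smallest adjusted p of the lower genes, and of Uqcrfs1, with the smallest exact p, are given 5′ to 3′ on the minus strand, with any motif match in capitals.
Cox6b1 chr7:30626065-30626364: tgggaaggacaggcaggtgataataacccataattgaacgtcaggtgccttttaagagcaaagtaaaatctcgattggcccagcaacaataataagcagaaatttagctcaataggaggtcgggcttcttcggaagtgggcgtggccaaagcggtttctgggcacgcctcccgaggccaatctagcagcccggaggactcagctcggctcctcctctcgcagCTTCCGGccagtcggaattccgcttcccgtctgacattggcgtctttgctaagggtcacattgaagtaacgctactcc
Uqcrfs1 chr13:30545267-30545566: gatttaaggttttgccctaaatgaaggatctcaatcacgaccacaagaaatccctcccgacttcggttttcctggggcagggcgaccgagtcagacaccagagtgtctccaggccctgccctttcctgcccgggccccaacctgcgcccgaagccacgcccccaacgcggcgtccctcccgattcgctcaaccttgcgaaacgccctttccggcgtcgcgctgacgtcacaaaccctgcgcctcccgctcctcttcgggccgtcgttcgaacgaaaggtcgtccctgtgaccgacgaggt
With the 5 motifs searched, the Cox6b1 promoter holds 1 match, the ETS core on the opposite strand at position 223, and that of Uqcrfs1 holds none. Their GC content is 53.0% and 62.3%.

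Genes that build or serve the chain were compared next. Of 47 listed assembly factors 39 were tested, 2 were lower by genotype and 0 higher, against 1.7% and 2.62% of all genes tested, with a median of -0.13 (2 lower also with voom and with DESeq2). Uqcc2, an assembly factor of complex III, averaged 220.3 ± 60.9 CPM over the 9 eIF2B HOM mice and 279 ± 83.9 CPM (SD) over the 12 wild-type mice (-0.36, adjusted p = 0.00854, edgeR). Sdhaf4, an assembly factor of complex II, was 85.6 ± 23.9 and 108.5 ± 38.5 CPM (-0.35, adjusted p = 0.0391, edgeR). Both were also lower in batch 2 (-0.62 and -0.72). Of 42 alternative genotype fits, the call of Uqcc2 was lost in 8 and that of Sdhaf4 in 22. Uqcc3 and Pet100, which act in the assembly of complexes III and IV, differed by -0.38 and -0.41 and were not called (adjusted p = 0.079 and 0.0969).

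Of 29 listed genes for electron carriers and nucleotide exchange 24 were tested and 0 were called with edgeR, 4 had an unadjusted p under 0.05, and voom and DESeq2 each called 1 lower. The smallest p belonged to Atpif1, the inhibitor of ATP synthase, with -0.28 (adjusted p = 0.05), followed by Vdac3, a channel of the outer membrane (0.27, adjusted p = 0.114), Coq2 of ubiquinone synthesis (-0.24, adjusted p = 0.153) and Gpd2 of the glycerol phosphate shuttle (0.18, adjusted p = 0.197). Of 30 listed regulators of mitochondrial DNA expression and biogenesis 18 were tested and 0 were called with edgeR, 3 had an unadjusted p under 0.05, and voom called 1 higher and DESeq2 0. Lrpprc, which stabilises mitochondrial mRNAs, differed by 0.43 (adjusted p = 0.0754), Gabpa, an ETS factor whose gene overlaps Atp5j on the opposite strand, by 0.49 (adjusted p = 0.117), Slirp, the partner of Lrpprc, by -0.26 (adjusted p = 0.193) and Hsd17b10, a subunit of mitochondrial RNase P, by 0.19 (adjusted p = 0.482).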

How the data were processed

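The data are 3′ mRNA libraries (QuantSeq, with unique molecular identifiers) of 21 mouse brains. Per the paper's methods and the submitters' processing notes, the authors trimmed reads with skewer, aligned them with STAR to GRCm38.p6 with Gencode M17, and counted genes with featureCounts of Subread 1.6.2. The strand setting and the handling of reads with several matches are not given in the sources used here. The authors deposited raw counts per gene, which at 100 or more are rounded to 2 significant digits, and CPM scaled with edgeR 3.40.2. The deposited CPM gave only the implied library sizes, 1090000 to 4690000. Totals of the deposited counts were 727018 to 3100141, and 5 libraries held fewer than 1000000.

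Members, lists and named genes were chosen with earlier results of these data known. Named are genes called by genotype, sex or interaction, the 6 with the smallest p by batch in each direction, isoform pairs, mt- genes, and those with the smallest genotype p in each complex (3) and each related list (4). Groups came from the labels, which name no litters, so p-values measure the spread between these mice. No 2 libraries were copies of each other (102 pairs compared). Low genes were dropped with filterByExpr on genotype, libraries were scaled by TMM, and genotype was tested beside sex and age by the robust quasi-likelihood method of edgeR 4.0.16 (R 4.3.3), with Benjamini-Hochberg adjustment over 9192 genes and a threshold of 0.05. Batch was tested beside genotype and sex. Tests of single genes used exact permutation over all 293930 splits of 9 against 12 mice. Alternatives used limma 3.58.1, DESeq2 1.42.0, other scalings, filters, covariates and left-out libraries. On simulated counts for 9192 genes with 200 changed, the genotype fit recovered 97% of changes of 1 and 61% of changes of 0.5 on the log2 scale, and the batch fit 100% and 59%. False calls were 6 of 164 by genotype and 4 of 163 by batch. Each simulation held only the 1 effect tested, with no other difference between mice shared across genes, and changes under 0.5 were not simulated. Window and transcript sequences came from Gencode transcripts of the same build. One marker gene is not reported here.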

Additional observations from a re-analysis of the deposited data

Results flagged for a closer look

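In 7 of 30 items examined among the 9 eIF2B HOM mice, 1 mouse lay far from the other 8, by Dixon's ratio of the gap to the whole range (critical value 0.493, exceeded by chance in about 1 in 20 groups). For Cox6a2 the ratio was 0.655. The high mouse was eIF2B HOM replicate 3 at 57.9 CPM, the library with the fewest counts, and the next was 35.9 CPM. Without it the log2 fold change was 0.94, and the call held. In Ndufa4 (0.587), Atp5j (0.642), Cox7c (0.571), Uqcrb (0.609), Cox8a (0.514) and mt-Nd3 (0.748) the far mouse was eIF2B HOM replicate 2, a female of 114 days in batch 1, which was the highest of the 9 in each. These 6 items share that mouse and so are not separate events. No cause was tested.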

How the results depend on the processing

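The higher call of Cox6a2 held in all 41 alternatives that tested it (0.70 to 1.37, adjusted p up to 0.0368), whereas requiring 10 counts per library throughout removed the gene, leaving 0 higher. The 12 lower calls by genotype became 23 with limma voomWithQualityWeights, 2 without libraries over 3 times the median of olfactory bulb markers, 1 without the 4 libraries highest in them, 6 without the library highest in nuclear genes and 1 with sex, batch and voom, the last 3 chosen after seeing the data. They became 0 with genotype alone, with sex and batch, with sex, age and batch, in batch 1 or batch 2 alone, and in females or males alone. Leaving out 1 mouse gave 1 to 26 lower and 1 higher. For the fits within 1 batch or sex and those without 1 mouse, the share of all genes called is not given here. By batch, the 42 lower and 2 higher became 20 and 0 with libraries of 1000000 counts or more, 0 and 0 with age added, 17 lower in wild-type alone, and 20 and 0 in eIF2B HOM alone, and leaving out 1 mouse gave 34 to 44 and 1 to 3. The cause was not tested. Of 43 genes followed through the alternatives, 7 changed sign in 1 or more, none of them among the 15 called by genotype. In batch 1 alone mt-Nd2 was 0.0961, mt-Nd4 0.0872, mt-Nd5 0.0731, mt-Nd6 0.00412 and Coq2 0.018. In batch 2 alone mt-Nd3 was 0.54 and Sdhb -0.0154. In females alone mt-Nd4 was 0.15, mt-Nd5 0.0304 and mt-Nd6 0.15, and in males alone Sdhb was -0.0026. With sex, age and batch mt-Nd4 was 0.0722, and leaving out 1 mouse gave it -0.0915 to 0.0465. Other scalings gave 10 or more of the 12 again (11 called in each), DESeq2 16 and no filter 8. The nuclear sum was 87.2% to 90.5% of wild-type and the mt- sum 93.5% to 96.9% under other scalings, and without the library highest in nuclear genes they were 91.4% and 93.6%. No paired analysis was possible because the labels give no litters and replicate numbers only follow the order of the samples. Cox6a2 rests on 725 counts, and 12 genes were too scarce to be tested at this depth.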
